A study of Mus musculus with 10 samples.

Results

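Distal open regions that lie close together were described here: 342 regions in 77 runs, of 28976 open regions in all, measured by ATAC-seq in mouse G1E-ER4 erythroid cells through 24 h of differentiation. Each peak summit of the 10 deposited lists was extended by 250 bp on either side and overlapping windows were merged. A region was kept when it lay more than 1 kb from every protein-coding transcript start of GENCODE M21 and held a summit in at least 3 lists, which left 8406 distal regions. Neighbours separated by short gaps were stitched (the widest gap joined was 12.462 kb and the narrowest that bounded a run 12.555 kb), and the regions in runs of 4 or more, 4.07% of the kept ones, were taken as members. The members were thus chosen by the positions of their summits and the number of lists that held them, and both are given as descriptions without a test. The tests over time drew on the same lists. The choice did not use time, but a member could pass through lists of a few times only. Each run is called by the gene whose start is the nearest one for the largest number of its members, at a tie the closer gene. This names a place and not a target.

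G1E-ER4 is 1 subclone of a Gata1-null mouse erythroid line that carries GATA1 fused to a ligand-binding domain of the estrogen receptor, so all groups lack endogenous GATA1 and all carry the fusion. Cells grew with SCF and erythropoietin, and 1e-07 M β-estradiol, which activates the fusion, was given for 0 (none), 2, 6, 12 or 24 h. There were 2 libraries per time point, each from about 50000 cells. The study describes the libraries of a time point as independent experiments, and the labels do not say more of their origin.

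ATAC-seq reads DNA that the Tn5 transposase can reach, which marks promoters and enhancers. Enhancers often sit in groups, and clusters such as locus control regions and super-enhancers lie near genes that define a cell type. In erythroid cells GATA1 binds the letters AGATAA or TGATAA, often in a complex with TAL1 at a composite in which CTG stands a short way before the GATA letters, and it both activates red cell genes and silences genes of the progenitor.

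Each list held 10697 to 19855 peaks, and a peak's score is −log10 of its q-value, at least 1.302. No read numbers were given, so depth is unknown, and a region without a summit in a list was not called there, which does not show that it was closed. Of 8 erythroid marker genes 3 to 6 had a listed promoter in each library (Slc4a1 and Hba-a1 in none), while B cell, macrophage and hepatocyte markers had none. Of 7 T cell markers 0 to 1 were listed per library, which was Lck in 3 libraries.

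The central 200 bases of 10 members are printed from the mm10 (GRCm38.p6) plus strand, with AGATAA or TGATAA on either strand in capitals, and with the CTG of a composite in capitals as well. The first 4 are from members that were in both lists at 0 h and in neither after 24 h ("lost"), chosen for holding the most GATA letters in their runs, and they show what a lost site at the Erv3, 1700020N01Rik and Zfpm1 runs looked like.
Erv3 lost member, chr2:131864477-131864676: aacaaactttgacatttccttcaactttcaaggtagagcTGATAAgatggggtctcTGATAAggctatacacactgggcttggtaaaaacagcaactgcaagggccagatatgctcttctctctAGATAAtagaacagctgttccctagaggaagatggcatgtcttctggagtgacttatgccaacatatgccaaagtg
Erv3 second lost member, chr2:131846722-131846921: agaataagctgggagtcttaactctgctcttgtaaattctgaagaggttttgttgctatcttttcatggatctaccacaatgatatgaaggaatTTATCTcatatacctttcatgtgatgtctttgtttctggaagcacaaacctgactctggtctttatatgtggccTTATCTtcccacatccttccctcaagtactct
1700020N01Rik lost member, chr10:21512629-21512828: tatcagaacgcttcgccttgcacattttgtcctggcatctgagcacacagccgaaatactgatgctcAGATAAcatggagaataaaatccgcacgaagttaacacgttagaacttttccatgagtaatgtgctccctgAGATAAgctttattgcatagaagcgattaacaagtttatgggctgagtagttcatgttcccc
Zfpm1 lost member, chr8:122313423-122313622: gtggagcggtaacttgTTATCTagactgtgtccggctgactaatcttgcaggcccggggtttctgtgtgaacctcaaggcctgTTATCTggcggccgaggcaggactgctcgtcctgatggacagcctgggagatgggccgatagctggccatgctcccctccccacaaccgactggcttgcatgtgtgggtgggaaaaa

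The next 3 are from members that were in neither list at 0 h and in both after 24 h ("gained"), 1 from each run whose number of listed members was higher after 24 h than at 0 h without overlap.
Rnf216 gained member, chr5:143052809-143053008: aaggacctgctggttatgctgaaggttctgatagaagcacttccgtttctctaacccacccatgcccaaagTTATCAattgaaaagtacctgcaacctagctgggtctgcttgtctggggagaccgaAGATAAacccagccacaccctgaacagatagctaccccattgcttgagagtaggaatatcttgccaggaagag
Ccr1 gained member, chr9:123930431-123930630: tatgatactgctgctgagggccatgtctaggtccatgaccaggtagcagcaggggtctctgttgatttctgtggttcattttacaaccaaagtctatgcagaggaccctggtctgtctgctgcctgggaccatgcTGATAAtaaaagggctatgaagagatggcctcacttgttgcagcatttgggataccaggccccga
Pim1 gained member, chr17:29447309-29447508: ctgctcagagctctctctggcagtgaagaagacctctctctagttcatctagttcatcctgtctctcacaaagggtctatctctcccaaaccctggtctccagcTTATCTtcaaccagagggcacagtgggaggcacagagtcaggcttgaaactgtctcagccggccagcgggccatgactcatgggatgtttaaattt

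The last 3 hold composites at the globin genes and were chosen after their values were seen, because these stretches are known erythroid enhancers.
Nprl3 member in all 10 lists, chr11:32245667-32245866: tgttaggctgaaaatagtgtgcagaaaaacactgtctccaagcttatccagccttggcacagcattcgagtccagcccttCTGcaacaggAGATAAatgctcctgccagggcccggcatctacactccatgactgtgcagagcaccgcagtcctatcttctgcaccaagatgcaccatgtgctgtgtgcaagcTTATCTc
Nprl3 gained member, chr11:32256198-32256397: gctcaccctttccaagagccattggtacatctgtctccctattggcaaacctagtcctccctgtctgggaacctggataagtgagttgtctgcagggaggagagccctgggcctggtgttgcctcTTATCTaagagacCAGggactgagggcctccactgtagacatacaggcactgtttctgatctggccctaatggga
Olfr66 member in 7 lists, chr7:103870758-103870957: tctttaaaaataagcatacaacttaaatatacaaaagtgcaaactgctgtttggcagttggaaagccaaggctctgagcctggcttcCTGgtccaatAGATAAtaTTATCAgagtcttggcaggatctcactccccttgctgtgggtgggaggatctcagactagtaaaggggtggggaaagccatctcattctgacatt

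The runs were short groups: 51 held 4 members, 19 held 5, 6 held 6 and 1 held 7. They spanned 7.70 to 46.8 kb with a median of 23.7 kb, and members covered a median of 13.0% of a span. The median gap inside runs was 6.40 kb. Some neighbouring members nearly touched, with gaps of 3 bp in the Spen run and 16 bp in the Glrx5 run. Whether such pairs are separate sites was not tested. The widest gaps inside were those of the Vil1 run (12.462 kb), the Kif23 run (12.403 kb) and the Tbxas1 run (12.384 kb), and the nearest kept regions left outside stood 12.555 kb from the Zfp217 run and 12.639 kb from the Kdm6b run. All members of 26 runs lay inside at least 1 gene, 27 runs touched no gene, and 12 runs had an open promoter region between their ends. Genes were those with a protein-coding transcript. Among the 26, the Gse1 and Zfpm1 runs also lay in the gene model Gm20388, and the Piezo1 and Cbfa2t3 runs as a whole in that model only. The Cbfa2t3 run touched no other gene, and its 4 members counted as intronic by this model. The distance from a run to the nearest transcript start had a median of 6.15 kb and was largest at the Klf3 run, 201 kb away. Runs were found on 17 chromosomes, with 8 each on chromosomes 4 and 11, and 9 neighbouring pairs stood within 500 kb of each other. The closest pairs were the Nans and Coro2a runs, 40.1 kb apart, and the Ccr1 and Ccr1l1 runs, 49.5 kb apart. The Zfpm1, Piezo1 and Cbfa2t3 runs followed each other on chromosome 8, with 207 and 143 kb between them.

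Members resembled the other kept distal regions in position, while their motif shares lay above those of the others for some motifs and below for others. Of the 342 members, 163 (47.7%) were intronic, 165 (48.2%) intergenic and 14 (4.09%) exonic, against 48.8%, 46.9% and 4.32% of the 8064 kept regions in shorter runs. AGATAA or TGATAA on either strand stood in the central 200 bases of 163 members (47.7%), of 44.1% of the other kept regions and of 27.2% of all merged regions. A composite, CTG followed after 7 or 8 bases by the GATA letters, was found in 38 members (11.1%), against 10.5% of the others and 5.004% of all merged regions. Each composite also counts among the GATA matches. CCNCNCCC, letters that KLF factors bind, stood in 32.7% of members and 26.4% of the others, GGAAGT (ETS) in 14.9% and 19.5%, TGTGGT (RUNX) in 20.5% and 20.9%, TGACTCA or TGAGTCA (AP-1) in 10.2% and 7.43%, and a CTCF motif in 4.97% and 7.56%. GC content averaged 52.3% ± 7.36 (SD, n = 342) in members and 50.2% ± 7.37 (SD, n = 8064) in the others. These shares are descriptions without a test, since neighbouring regions are not independent. GATA letters were spread over the runs: 66 runs had them in at least 1 member, 33 in 3 or more, and 27 runs held a composite. The Rnf216, Kcnn4 and Kidins220 runs had them in every member, and 11 runs, among them Chd2, Kdm6b and Spen, had them in none.

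Persistence differed widely between members. In all 10 lists stood 53 members (15.5%), against 14.4% of the other kept regions, and 50 members (14.6%) were in 3 lists only, the least the rule allowed, against 22.3%. The 53 were spread over 35 runs, 42 runs had none, and in no run were all members in every list. The Prkar2b run, 6 intergenic regions between Prkar2b (a regulatory subunit of protein kinase A) and Pik3cg (a phosphoinositide 3-kinase), came nearest, with 5 of 6 members in every list. Its members listed were 6 and 5 at 0 h, 6 and 5 after 2 h, 6 and 5 after 6 h, and 5 in each library after 12 h and 24 h. The Glrx5 run, at the gene for a mitochondrial glutaredoxin of iron-sulfur cluster assembly, and the Chd2 run, near a chromatin remodeler gene, had 3 such members each. Among the 53, the highest median scores over the 10 libraries were 21.2 in the Ccr1 run, 20.7 in the Nr1d1 run, 19.2 in the Prkar2b run, 17.9 in the Prrc2b run and 17.0 in the Runx1 run.

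Many runs had a leading member, the one with the highest score in a library. The same member led in 8 or more libraries in 26 runs, and in every library in 9 runs: Gfi1b, Piezo1, Fbxl22, Ccr1, Sf3b5, Nprl3, Nr1d1, Runx1 and the second of a pair of Irf2bpl runs. The most frequent leader of a run stood at an end of it in 34 of 77 runs. This is a description only, since in the 51 runs of 4 members 2 of the 4 places are ends. GATA letters were found in 38 of these 77 leaders (49.4%) and in 125 of the other 265 members (47.2%). In the Nr1d1 run, which spans Thra and Nr1d1, genes of 2 nuclear receptors, the leader 1.03 kb from an Nr1d1 start scored from 15.6 to 39.8, while 4 of the 7 members were in 3 or 4 lists.

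The number of members listed in a library followed the length of its list. It was 249 and 165 at 0 h, 250 and 220 after 2 h, 206 and 294 after 6 h, 232 and 210 after 12 h, and 233 and 135 after 24 h (replicates 1 and 2). The 24 h replicate 2 library, with the shortest list, was lowest, the 6 h replicate 2 library, with the longest, was highest, and the values of every later time overlapped or straddled those of 0 h. Over the 10 libraries the number listed went with the number of peaks (Pearson's r = 0.972, Spearman's rho = 0.952, a description, since members are counted from the same peaks). All members were listed in 38 of 77 runs in the longest list and in 2 runs in the shortest, where 12 runs had no member listed.

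**Figure D1:**
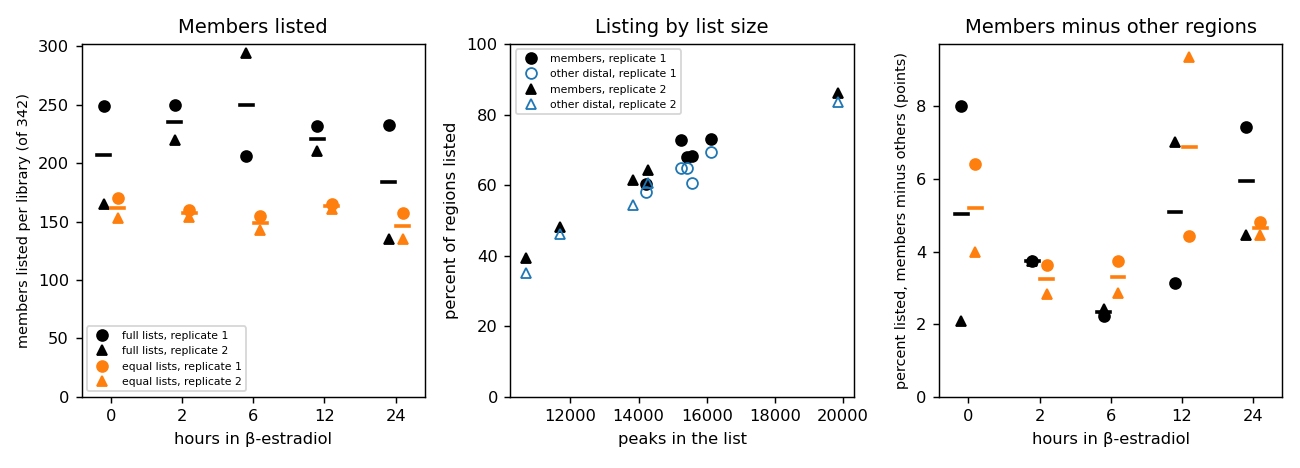
Members listed per library against hours in β-estradiol (left, from 135 to 294 with the full lists and from 135 to 170 with lists of equal length), percent of members and of other kept distal regions listed against the number of peaks in the list (middle), and the difference of the 2 percents against time (right, symbols as in the left panel). Circles are replicate 1, triangles replicate 2 and horizontal bars the mean of 2, with time points spaced evenly; the members listed follow the list length, and the difference is above 0 in each library.

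Members listed averaged 207 ± 59.4 at 0 h, 235 ± 21.2 after 2 h, 250 ± 62.2 after 6 h, 221 ± 15.6 after 12 h and 184 ± 69.3 after 24 h (SD, n = 2 each). No trend with time was found (r = -0.34, permutation p = 0.344, adjusted over 2 trends 0.354; rho = -0.20, permutation p = 0.601, adjusted 0.601; two-sided, n = 10). Without both 24 h libraries r was 0.0874, and r was -0.27 among replicate 1 and -0.45 among replicate 2 libraries. Against 0 h the differences of the means were 28, 43, 14 and -23 members at 2, 6, 12 and 24 h, each with an exact permutation p of 0.667 or 1, where 2 against 2 libraries allow no p under 0.33. The direction after 24 h rested on single libraries, since the difference was 26 without 24 h replicate 2 and 19 without 0 h replicate 1. When each list was shortened to its 10697 highest scores, 135 to 170 members were listed, and the differences after 2 h and 6 h turned to -4.50 and -12.5.

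Members were listed somewhat more often than the other kept distal regions in each of the 10 libraries, by 2.08 to 8.0 percentage points. The difference was 8.0 and 2.08 points at 0 h, 3.73 and 3.74 after 2 h, 2.22 and 2.42 after 6 h, 3.13 and 7.03 after 12 h, and 7.43 and 4.47 after 24 h. The 0 h libraries held both the lowest and the highest value, and no trend with time was found (r = 0.330, permutation p = 0.354, adjusted 0.354; rho = 0.271, permutation p = 0.463, adjusted 0.601; n = 10). Without both 24 h libraries r was 0.0381, and r was 0.206 among replicate 1 and 0.523 among replicate 2 libraries. Without 0 h replicate 1 r was 0.666 (permutation p = 0.0454), and with regions kept only from 5 or more lists it was 0.651 (permutation p = 0.0428), so the absence of a trend depended on these choices.

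With the full lists gains were most frequent after 6 h, the time of the longest list, and losses after 24 h, while with lists of equal length both were most frequent after 24 h. After 2 h 15 members (4.39%) were gained, after 6 h 29 (8.48%), after 12 h 24 (7.02%) and after 24 h 24 (7.02%). The other kept distal regions gained 6.24%, 8.97%, 5.83% and 3.98% at these times, and all merged regions 2.67%, 4.08%, 2.47% and 1.71%. Lost members numbered 4 (1.17%) after 2 h, 7 (2.05%) after 6 h, 18 (5.26%) after 12 h and 33 (9.65%) after 24 h. The other kept regions lost 2.32%, 1.77%, 4.79% and 9.80%, and all merged regions 1.15%, 0.759%, 1.88% and 3.51%. The member shares lay near those of the other kept regions at most times, and the 24 h share gained was the furthest above them, a difference that was not tested. A region seen in 1 list can by construction be neither gained nor lost, and all merged regions include those and 10312 regions within 1 kb of a start. With equal lists the members gained were 9, 11, 12 and 23 in order of time and those lost 12, 15, 17 and 28. The 23 gained and 28 lost after 24 h were 6.73% and 8.19% of members, beside 4.02% and 7.50% of the other kept regions.

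**Figure D2:**
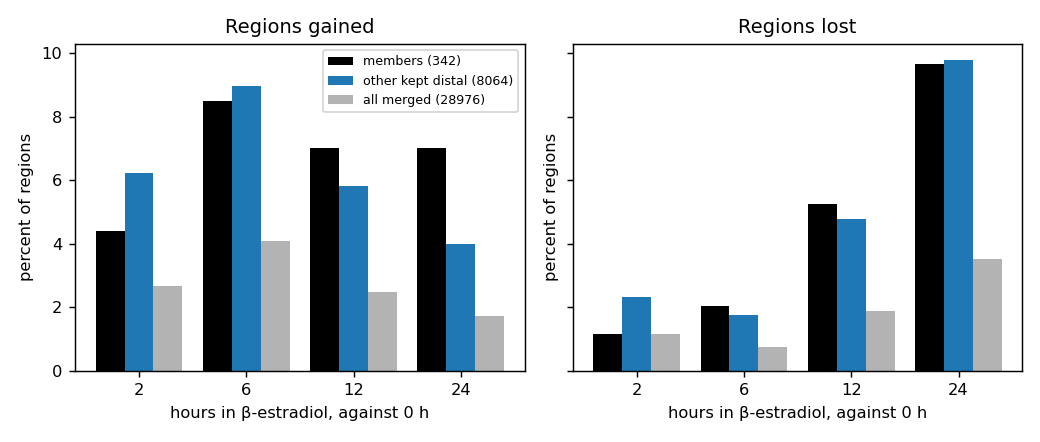
Percent of regions gained (left) and lost (right) against 0 h at 2, 6, 12 and 24 h, for the 342 members, the 8064 other kept distal regions and all 28976 merged regions. Losses of members rise from 1.17% at 2 h to 9.65% at 24 h, beside 2.32% and 9.80% of the other kept regions.

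As a set, the 33 members lost after 24 h were in fewer lists at each later time, with both ends fixed by definition. After 2 h 11 of them were in both lists, 20 in one and 2 in neither, after 6 h the counts were 10, 18 and 5, and after 12 h they were 8, 12 and 13. Single members could leave and return: a lost member of the Fnip2 run was in no list at 2 h and 6 h and in 1 at 12 h. Of the 24 members gained after 24 h, 6 were in both lists, 8 in one and 10 in neither after 2 h. After 6 h, with the longest list, 14 were in both and 10 in one, and after 12 h 14 were in both, 6 in one and 4 in neither. Lost members had scores of 2.33 to 13.6 at 0 h (median 4.75), and gained members 2.68 to 11.0 after 24 h (median 5.13). The 53 members listed throughout had a median of 8.78 at 24 h. They were picked for being in every list, which favours high scores, and the scores of lost members are from 0 h. GATA letters stood in 20 of 33 lost members (60.6%) and in 15 of 24 gained ones (62.5%), while the other kept regions held them in 72.2% of those lost and 44.5% of those gained. CCNCNCCC stood in 7 lost members (21.2%) and 11 gained ones (45.8%), beside 32.7% of all members. These are few regions, the difference was not tested, and the shares were not computed for other kept regions lost or gained. After 24 h 16 runs had lost members only, 12 had gained members only, 10 had both and 39 neither. Shorter runs were not split in this way.

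Counted by run, the 24 h libraries rarely stood apart from the 0 h libraries. The number of members listed was lower in both 24 h libraries than in both 0 h libraries in 11 of 77 runs (14.3%) and higher in 3 (3.90%), where runs of 2 or 3 kept regions gave 11.6% and 4.45%. The 11 lower runs were Coro2a, Zfp217, Erv3, Ikzf1, Tbxas1, Inpp5d, Kif23, 1700020N01Rik, Ndfip1, Zfpm1 and Pip5k1b. With equal lists 12 runs were lower, 7 of them among these 11, and 8 were higher, 1 of them (Rnf216) among the 3, and the Pip5k1b run turned from -37.5 to 25.0 points and was among the 8. Runs of 2 or 3 were not counted with equal lists, so the 12 and 8 have no share to be set against. Limma on the percent of members listed called 0 of 77 runs at 2, 6, 12 or 24 h (0.0% in each direction, Benjamini-Hochberg adjusted p under 0.05). After 24 h 4 runs were lower and 0 higher at an unadjusted p under 0.05, and the smallest adjusted p was 0.222. With equal lists limma called 2 runs lower after 24 h, Ikzf1 (adjusted p = 0.00901) and Coro2a (adjusted p = 0.0110).

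**Figure D3:**
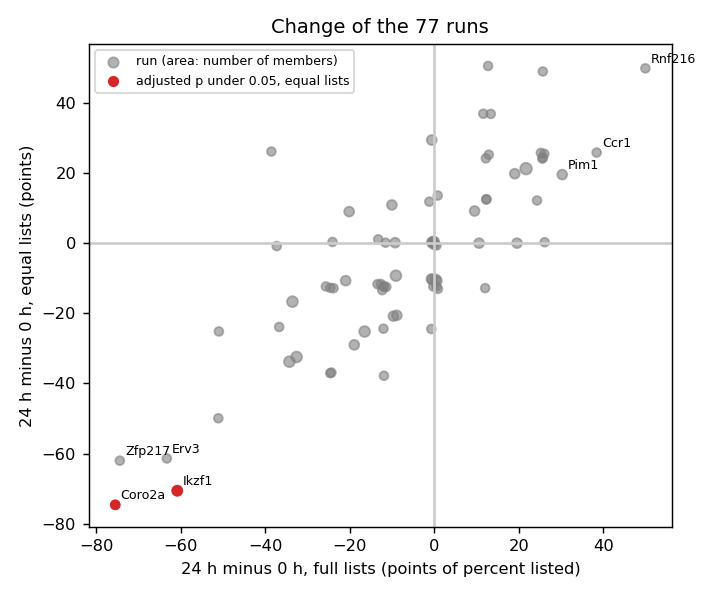
Percent of members listed at 24 h minus 0 h for each of the 77 runs, with the full lists (horizontal axis) and with lists of equal length (vertical axis), in percentage points; points are shifted by up to 1.2 points so that they can be told apart, and their area follows the number of members. Coro2a, Zfp217, Erv3 and Ikzf1 lie furthest below 0 on both axes, and Rnf216 furthest to the right.

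Among the runs that fell furthest, 4 are described with every library. The Coro2a run lay in introns of Coro2a, which encodes an actin-binding coronin, and had 4 and 4 of its 4 members listed at 0 h, 2 and 3 after 2 h, 2 and 4 after 6 h, 1 and 1 after 12 h, and 2 and 0 after 24 h. The 0 h libraries stood above both 12 h and both 24 h libraries. Limma gave a difference of -75.0 points after 24 h (SE 26.0, adjusted p = 0.222), and -75.0 with equal lists (SE 18.7). The Zfp217 run, 31.4 kb or more from the start of this zinc finger gene, had 4 and 4 listed at 0 h, 4 and 2 after 2 h, 2 and 4 after 6 h, 1 and 1 after 12 h, and 2 and 0 after 24 h. Its 24 h difference was -75.0 points (SE 26.3, limma adjusted p = 0.222), and -62.5 with equal lists (SE 20.4, adjusted p = 0.0795). In both runs the members that remained after 12 h were the same in both libraries, the one 2.01 kb from a start at Coro2a and the outermost one at Zfp217. Neither run was called with the full lists.

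The Erv3 run lost 3 of its 4 members, the most of any run. Erv3 is a gene of endogenous retroviral origin, and the prion gene Prnp is also within 100 kb. Its members listed were 4 and 3 at 0 h, 4 and 4 after 2 h, 2 and 3 after 6 h, 1 and 3 after 12 h, and 1 and 1 after 24 h. All 3 lost members held GATA letters, 3, 2 and 2 matches, as in the pair printed above, and the member that stayed, in 9 lists, held none. The difference after 24 h was -62.5 points (SE 25.7, limma adjusted p = 0.343), not called.

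The Ikzf1 run lay in introns of Ikzf1, which encodes the lymphoid and progenitor transcription factor Ikaros. It had 5 and 4 of 5 members listed at 0 h, 3 and 5 after 2 h, 3 and 5 after 6 h, 2 and 4 after 12 h, and 3 and 0 after 24 h. The 24 h libraries lay below those at 0 h, but one of them kept 3 members. The difference was -60.0 points (SE 23.9, limma adjusted p = 0.343) and -70.0 with equal lists (SE 16.3, adjusted p = 0.00901). GATA letters stood in 4 of its 5 members. The Tbxas1 run, in the gene of thromboxane synthase, had 4 and 4 of 4 listed at 0 h and 3 and 1 after 24 h (-50.0 points, SE 25.7, limma adjusted p = 0.676).

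**Figure D4:**
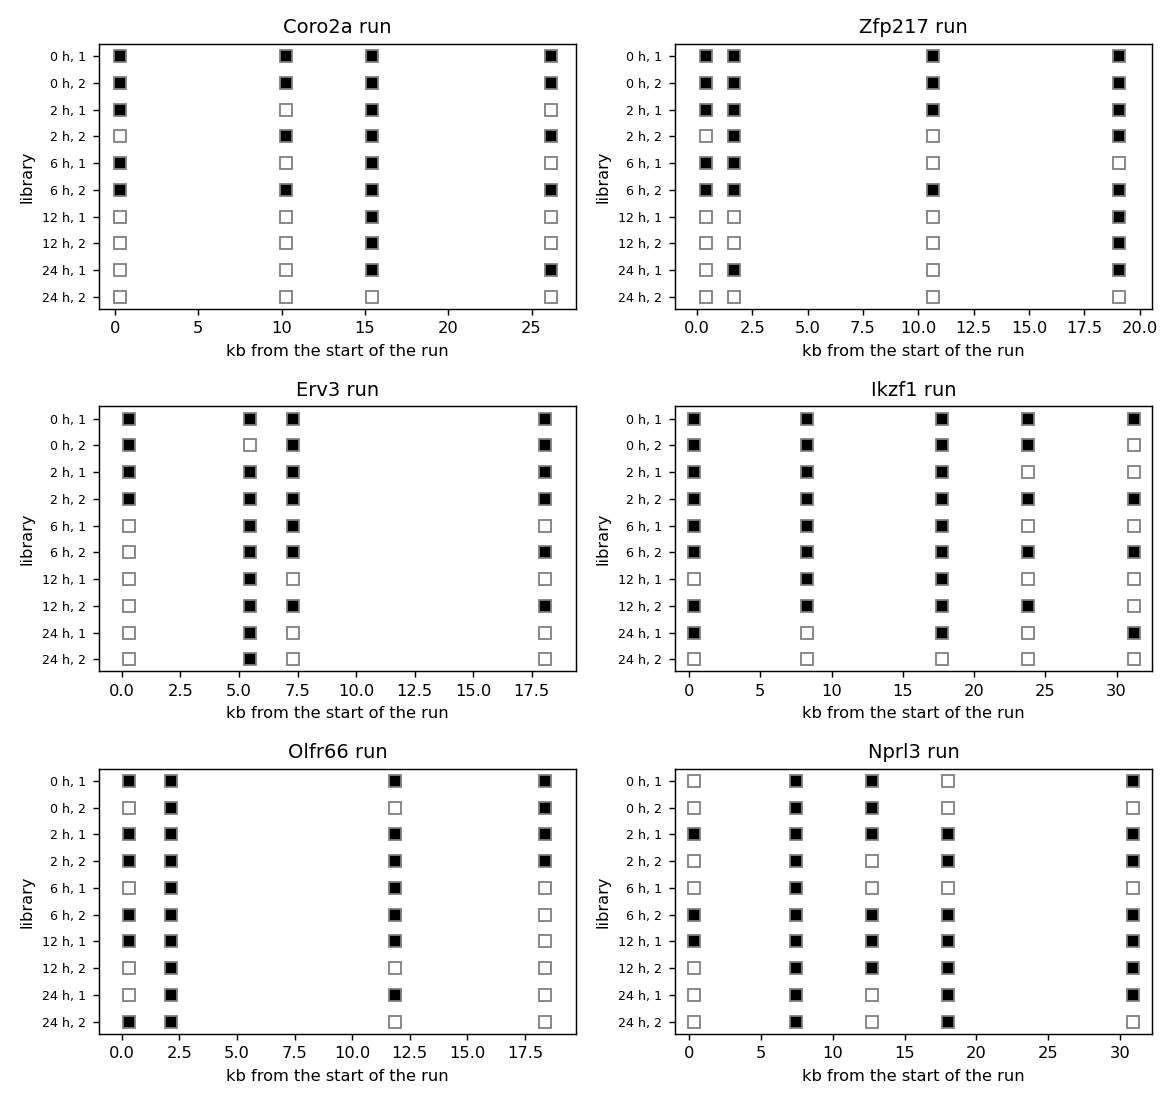
Members of 6 runs by distance in kb from the start of the run (horizontal) and library (vertical, time and replicate); a filled square is a member with a summit in that library and an open square a member without one. In the Coro2a and Zfp217 runs 1 member is filled in each 12 h library, in the Erv3 run 1 member in each 24 h library, and in the Olfr66 and Nprl3 runs 1 member each is filled in all 10.

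With the full lists 3 runs were higher after 24 h without overlap. The Rnf216 run, in introns of a ubiquitin ligase gene, had 0 and 1 of its 4 members listed at 0 h, 1 and 4 after 2 h, 3 and 3 after 6 h, 1 and 2 after 12 h, and 2 and 3 after 24 h. All 4 members held at least 2 GATA matches, and the gained one, printed above, was in every list from 6 h on. The difference was 50.0 points (SE 26.3, limma adjusted p = 0.676), not called. The Ccr1 run, 7.70 kb long and 36.5 kb from the start of this chemokine receptor gene, had 3 and 2 of 4 listed at 0 h and 4 in each library after 6 h and 24 h (37.5 points, SE 25.3, limma adjusted p = 0.878). Its gained member was in no list at 0 h and 2 h and in every list from 6 h on. The Pim1 run, 43.0 kb from the start of Pim1 (a kinase gene induced by cytokine signals), had 2 and 1 of 5 listed at 0 h, 3 and 3 after 2 h, 5 and 4 after 6 h, 3 and 2 after 12 h, and 3 and 3 after 24 h. It was 1 of 2 runs with 2 gained members, and its 24 h difference of 30.0 points was not called (SE 22.7, limma adjusted p = 0.878).

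Genes of the erythroid transcription factor list lay near 5 runs. The list also holds factors with roles in other blood cells, such as Ikzf1 and Runx1. Of its 24 genes, Zfpm1, Cbfa2t3, Gfi1b, Runx1 and Ikzf1 had a start within 100 kb of a run. In all, 356 of 21681 genes (1.64%) did, a description without a test. Zfpm1 encodes FOG1, the cofactor of GATA1, and its run in introns, 27 kb from a start, had 3 and 3 of 4 members listed at 0 h, 3 and 4 after 2 h, 2 and 4 after 6 h, 2 and 4 after 12 h, and 2 and 2 after 24 h. Cbfa2t3 encodes the corepressor ETO2, and its run, 1.32 kb from a start, had 3 and 4 of 4 listed at 0 h, 3 and 2 after 2 h, 1 and 3 after 6 h, 3 and 3 after 12 h, and 4 and 4 after 24 h. Its 2 members furthest from the start, both with a composite, stood 89 bp apart, 20.5 and 21.2 kb from the start. The 24 h libraries overlapped those of 0 h at Cbfa2t3 and lay 1 member lower at Zfpm1.

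Gfi1b encodes a repressor needed for red cell and platelet formation, and its run had 2 and 1 of 4 members listed at 0 h, 4 and 2 after 2 h, 2 and 4 after 6 h, 3 and 3 after 12 h, and 2 and 2 after 24 h. The leader, an intergenic region with 2 GATA matches, was in all 10 lists at scores of 7.16 to 20.5. Runx1 encodes a factor of blood stem cells and megakaryocytes, and its intronic run had 4 and 2 of 5 listed at 0 h, 3 and 4 after 2 h, 3 and 3 after 6 h, 3 and 2 after 12 h, and 3 and 2 after 24 h. Its 2 constant members, 23.6 and 3.14 kb from a start, held no GATA letters, while the members 31.5 and 12.8 kb away held 2 matches each and were in 3 lists each. In neither run did the 24 h libraries stand apart from those at 0 h.

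The globin genes were the hemoglobin, heme and iron genes with a run within 100 kb, 4 of 22 that had a start in the annotation. The Olfr66 run lay at chr7:103859001-103877715, upstream of Hbb-y where the β-globin locus control region is known to be, 30.9 kb from Hbb-bs and 45.0 kb from Hbb-bt. It had 4 and 2 of 4 members listed at 0 h, 4 and 4 after 2 h, 2 and 3 after 6 h, 3 and 1 after 12 h, and 2 and 2 after 24 h. The member 7.58 kb from the start of Hbb-y was in all 10 lists at scores of 4.36 to 12.8, and the member nearest to Olfr66, with 2 GATA matches, was in both lists at 0 h and 2 h and in none later. Composites stood in the other 2. The difference after 24 h was -25.0 points (SE 26.0, limma adjusted p = 0.878), and was not called.

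The Nprl3 run lay at chr11:32238306-32269561, in and beside Nprl3, whose introns are known to hold the α-globin enhancers, 14.0 kb from Hba-a1 and 26.9 kb from Hba-a2. It had 3 and 2 of 5 members listed at 0 h, 5 and 3 after 2 h, 1 and 5 after 6 h, 5 and 4 after 12 h, and 3 and 2 after 24 h. Its leader, 18.9 kb from the nearest start, which was that of Mpg, held a composite and was in all 10 lists at scores of 6.12 to 22.8. Another member with a composite was gained and one with GATA letters was lost, so that the number listed was the same after 24 h as at 0 h (0.00 points, SE 24.0, limma adjusted p = 1).

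The other gene lists are given as counts beside the 1.64% of all genes. Of 20 genes of cytokine receptors and signalling 2 (10.0%), Pim1 and Il9r, lay within 100 kb of a run, Il9r by the Nprl3 run. None of 20 red cell membrane genes, 14 mast cell and basophil genes or 14 megakaryocyte and platelet genes did. Of the promoters that the study captured, 2 of 22 activated ones (9.09%), Hbb-bs and Il9r, lay near a run, and 0 of the 19 repressed ones that were analysed here.

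**Figure D5:**
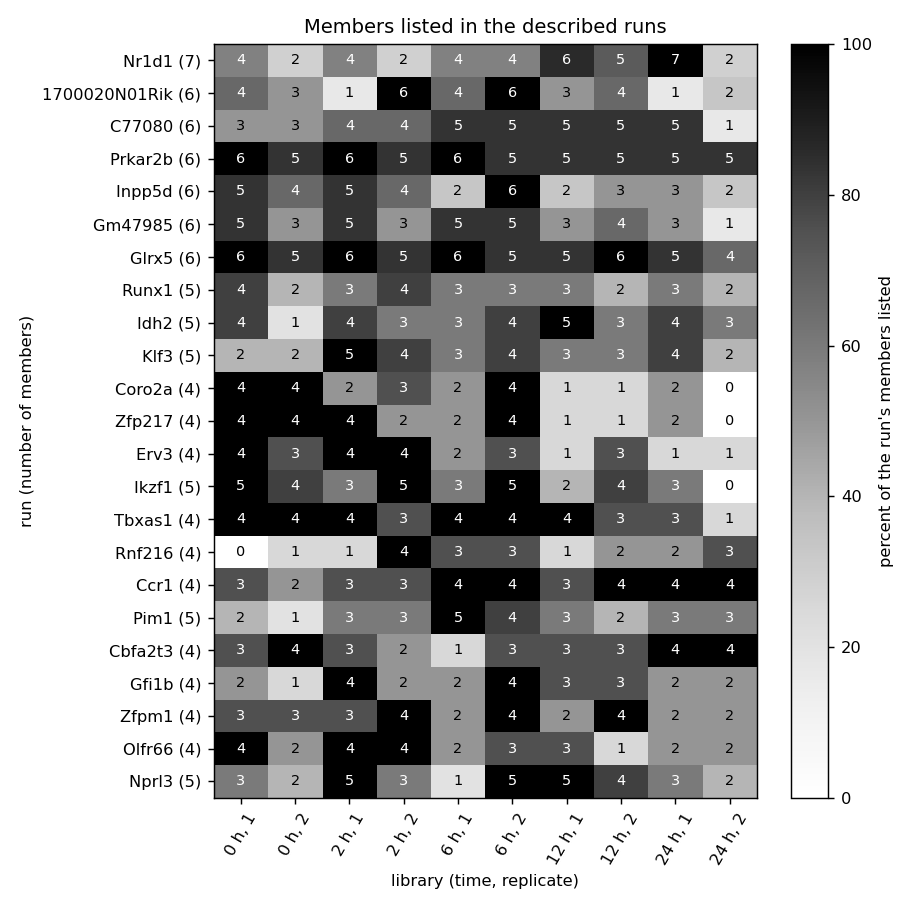
Number of members listed (printed in each cell) and percent of the run's members listed (shade) in each of the 10 libraries, for the runs named by the fixed rule and the Olfr66 and Nprl3 runs; the number of members stands in parentheses. The Prkar2b run has 5 or 6 of 6 members in every library, and the Coro2a, Zfp217 and Ikzf1 runs have 0 in 24 h replicate 2.

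In some of the remaining large runs, libraries of 1 time point differed widely, as in the Nr1d1 run after 24 h. The spread between libraries was not compared with that between times. The Nr1d1 run had 4 and 2 of 7 members listed at 0 h, 4 and 2 after 2 h, 4 and 4 after 6 h, 6 and 5 after 12 h, and 7 and 2 after 24 h. The 1700020N01Rik run, intergenic and 67.0 kb from the nearest start, had 4 and 3 of 6 at 0 h, 1 and 6 after 2 h, 4 and 6 after 6 h, 3 and 4 after 12 h, and 1 and 2 after 24 h, with GATA letters in 5 members, 2 lost and 1 gained. Their 24 h libraries overlapped those of 0 h in the first and lay below them in the second. The Inpp5d run, in introns of the gene for the inositol phosphatase SHIP1, had 5 and 4 of 6 at 0 h, 5 and 4 after 2 h, 2 and 6 after 6 h, 2 and 3 after 12 h, and 3 and 2 after 24 h, and lost 2 members. The Idh2 run, near the gene of mitochondrial isocitrate dehydrogenase, had 4 and 1 of 5 at 0 h and 4 and 3 after 24 h, and the Klf3 run, far from any start, 2 and 2 of 5 at 0 h, 5 and 4 after 2 h and 4 and 2 after 24 h. The C77080 run had 3 and 3 of 6 at 0 h, 4 and 4 after 2 h, 5 and 5 after both 6 h and 12 h, and 5 and 1 after 24 h. The Gm47985 run had 5 and 3 of 6 at 0 h and 3 and 1 after 24 h.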

How the data were processed

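ATAC-seq was measured in 10 libraries, 2 at each of 5 time points, grouped by the labelled time. The authors deposited 1 list of summits per library, each with a score in −log10 q-value units from MACS2, and per the labels reads with 1 location in mm10 were kept (Bowtie 1.0.0, Picard and MACS2 in the submitters' processing notes, while the methods name Bowtie2). No shift for the Tn5 cut was stated, and no depth was given. The build matched the reference used here (GRCm38.p6, GENCODE M21). Peaks on chromosomes 1 to 19 and X were used. A region was listed where a library had a summit in it. Members and gene lists were chosen with earlier results of these data known. Trends over time were tested with 100000 permutations, time points by an exact permutation test, and runs by limma 3.58.1 (R 4.3.3) on the percent of members listed, weighted by the number of members, in 1 fit of all times, with Benjamini-Hochberg adjustment. The fit was first checked on simulated runs that went from no member listed at 0 h to all at 24 h, or the reverse. Smaller changes were not simulated. Named runs were the 10 with most members, and up to 5 largest falls and rises among runs whose 24 h and 0 h libraries did not overlap. Runs within 100 kb of a gene of the erythroid transcription factor list were named too. The Olfr66, Nprl3 and Chd2 runs and a few others named by a count were picked after their values were seen. Motifs were sought in the central 200 bases. Alternatives were lists of equal size, scores of 3 or more, 100 bp flanks, at least 5 lists, gaps of at most 5 kb, a replicate block, each library left out, runs of 2 or more, whole regions for motifs and, chosen after seeing the data, transcript starts of the basic annotation and equal lists for the runs without overlap.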

Additional observations from a re-analysis of the deposited data

How the results depend on the processing

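Of 398 values under alternatives, 331 kept their direction and side of the threshold or stayed close. Many of these could not change, such as members gained at 2 h when a library of 6, 12 or 24 h was left out. The count is therefore no measure of how firm the results are. With lists of equal size the differences from 0 h in members listed were -4.50 at 2 h and -12.5 at 6 h, gains were 9, 11 and 12 at 2, 6 and 12 h, losses 12 and 15 at 2 and 6 h, and limma called 2 runs lower at 24 h. Without overlap 12 runs were then lower and 8 higher at 24 h (an alternative added after seeing the data, with no count of shorter runs beside it). With scores of 3 or more 1 run was lower at 24 h. With 100 bp flanks 9 members were lost at 2 h. With at least 5 lists there were 116 members in 28 runs (27 had enough spread to be tested), gains of 3, 9, 7 and 8, losses of 1, 0, 2 and 6 at 2, 6, 12 and 24 h, and r of the difference with time was 0.651. With gaps of at most 5 kb there were 17 members in 4 runs, r of members listed with time was 0.204, the 24 h difference 2.50, gains were 0, 5, 3 and 4 and losses 0 at each time, GATA letters stood in 64.7% of members, and limma called 2 runs higher at 6 h, and 2 higher and 1 lower at 24 h. Searching whole regions gave GATA letters in 66.7% and composites in 17.5% of members, since more bases were searched. With starts of the basic annotation, chosen after seeing the data, there were 366 members in 83 runs and no call changed. Limma on 1128 runs of 2 or more called none.

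With each library left out in turn, r with time ran from -0.56 (without 0 h replicate 2) to 0.0872 (without 24 h replicate 2) for members listed and from 0.0765 to 0.666 for the difference. Differences from 0 h ran from -14.0 to 70.0 at 2 h, -1 to 87.0 at 6 h, -28.0 to 56.0 at 12 h and -72.0 to 26.0 at 24 h, and the reversed ones were -14.0 at 2 h and -28.0 at 12 h without 0 h replicate 2, -1 at 6 h without 6 h replicate 2, and 19.0 and 26.0 at 24 h without 0 h replicate 1 and 24 h replicate 2. Gains ran from 15 to 55, 29 to 76, 24 to 62 and 24 to 54, and losses from 4 to 26, 7 to 42, 18 to 40 and 33 to 67 at 2, 6, 12 and 24 h, because 1 library per time meets the rule more easily than 2. The number of runs called by limma was 0 throughout, where the lone library of a time was assumed to vary like the others.

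Same-numbered libraries were not shown to be paired, and pairing was not tested. Over kept distal regions the correlation of their deviations between times was 0.0290 to 0.116. Over members it was -0.0163 (6 h with 24 h) to 0.301 (2 h with 12 h). With a replicate block the trend of members listed had r = -0.34 (permutation p = 0.377), that of the difference r = 0.330 (permutation p = 0.375), and limma called 0 runs (smallest adjusted p at 24 h 0.233), so the block changed no call. Depth is unknown, so a missing summit may be a weak signal, and 2 libraries per time cannot pass an exact test at 0.05.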
